A study of Mus musculus with 16 samples.

Results

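The 6 libraries whose titles hold APCCM, of 16 in the series, were compared by culture day. Intestinal organoids, closed epithelial structures grown from crypt cells in a gel matrix, were sampled in 3 such libraries on day 2 and in 3 on day 4, and every gene was compared 3 with 3. All 6 are labelled as organoids of the Apc mutant genotype, strain C57BL6, kept in conditioned medium from Apc mutant cultures. Per the labels' protocols, crypts came from mice with Lgr5-EGFP-IRES-CreERT2, which puts a tamoxifen-inducible Cre in Lgr5 stem cells, alone or with Apc fl/fl, and Villin-CreERT2 with Apc fl/fl is named as a further source. Apc was recombined in culture with 4OH-Tamoxifen, recombined organoids carried a green Venus construct and wild type organoids a red mCherry construct. The conditioned medium was taken from WT or Apc-/- cultures and supplemented with R-spondin, Noggin and mEGF. The other 10 libraries are 6 with WTCM in the title, 3 per day, and 4 without conditioned medium. The labels give the WTCM libraries conditioned medium from Apc mutant cultures as well, so the titles do not differ in labelled medium. The design text of the series lists conditioned medium on day 2 alone, so day 4 rests on the labels of the libraries.

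Intestinal epithelium is renewed from stem cells at the crypt base, which are held by Wnt signals and by Notch contact with their neighbours. Their daughters divide a few times and become absorptive enterocytes or secretory goblet, Paneth, enteroendocrine and tuft cells. Organoids start from crypts or fragments and grow crypt-like buds and a villus-like wall over days in culture, with R-spondin, Noggin and EGF standing in for signals of the surrounding tissue.

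The labelled genotype was checked first on targets of beta-catenin, which loss of Apc turns on. Notum, an enzyme that is secreted and strips Wnt proteins of their lipid, was at 0.665, 0.753 and 0.608 CPM on day 2 and 0.293, 0.620 and 0.464 CPM on day 4 in the APCCM libraries, against 258 and 312 CPM in the 2 untreated libraries labelled Apc mutant. Nkd1, a feedback inhibitor of the pathway, was at 1.54, 1.56 and 1.72 CPM on day 2 and 1.17, 2.17 and 1.94 CPM on day 4, against 439.8 and 533 CPM without conditioned medium. Both targets go against the genotype label of all 6 libraries, which are therefore called the APCCM libraries, or the libraries labelled Apc mutant. The title APCCM can stand for the organoids or for where their medium came from. Counts over all of Apc (252 to 278 CPM on day 2, 266 to 281 CPM on day 4) do not separate its recombined part. They stood near the 249 and 218 CPM of the untreated libraries labelled Apc mutant and above the 69.3 and 76.2 CPM of the untreated wild type ones, as did the WTCM libraries (237 to 269 CPM). On Apc the 6 libraries thus lay with the untreated Apc mutant libraries, and on Notum and Nkd1 far below them. On these 2 targets they stood near the untreated wild type libraries (Notum 0.327 and 0.218 CPM, Nkd1 1.80 and 1.31 CPM). Titles of day 2 and day 4 are written in different formats, and the days may be separate library sets, so culture time and library set cannot be told apart. No label says that the replicates were separate cultures. The p-values therefore rest on the spread between libraries within groups, estimated over all 16 libraries, and that spread may be technical.

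Each library held 17986815 to 25077973 counts assigned to genes. Markers of epithelium (Epcam, Cdh1, keratins, claudins and Vil1) summed to 6700 to 7160 CPM on day 2 and 7070 to 7410 CPM on day 4, and 1 of the 8 rose (Vil1, 0.22). Of 34 markers of other cells, stromal ones summed to 5.62 to 7.24 CPM on day 2 and 8.05 to 8.31 CPM on day 4, immune ones to 4.95 to 5.12 and 4.08 to 4.80 CPM, and endothelial and neural ones to 3.00 to 3.80 and 3.79 to 5.34 CPM. Dcn, Lum, Col3a1 and Cdh5 had 0 counts in all 6 libraries, and 2 of the 12 such markers that could be tested rose, Pdgfrb (1.02, 0.811 and 1.27 CPM on day 2 and 2.49, 2.68 and 2.87 CPM on day 4) and Tubb3, which missed the threshold without replicate 1 or 2 of day 2 or replicate 2 or 3 of day 4 (adjusted p 0.085 to 0.20). RNA content moved with the day too. Reads that did not align made up 8.05 to 8.73% of reads on day 2 and 7.35 to 7.86% on day 4, and protein-coding genes 84.7 to 85.9% and then 86.9 to 87.4% of gene counts, with no overlap between days in either. The non-coding gene Gm26917 took 9.41 to 10.3% of gene counts on day 2 and 7.68 to 8.06% on day 4, did not overlap and did not pass (log2 fold change -0.32, SE 0.14, adjusted p = 0.10), though it passed in the fit of the 6 APCCM libraries (adjusted p = 6.2e-05). The part of these shares in the results below was not tested.

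Levels below are CPM, each library's counts scaled to one common total, after TMM scaling for RNA composition. Changes are log2 fold changes of day 4 over day 2 with their standard error (SE). Adjusted p-values are those of the quasi-likelihood test of edgeR, with Benjamini-Hochberg adjustment across the 16510 genes tested, and a gene is said to have risen, fallen or been called at an adjusted p under 0.05. The days differed in 3946 genes, 23.9% of those tested: 2007 rose (12.2%) and 1939 fell (11.7%). Most changes were small. The median size among called genes was 0.35 on the log2 scale, and 439 genes (2.66%) changed at least 2-fold, 216 upward and 223 downward. The median over all tested genes was 0. Counts for gene lists below are to be read against these shares. Days overlapped in CPM in 111 of the 3946 called genes, and the rule that named most genes below required no overlap. Separation of the days in named genes is therefore a description and no further support. The first principal component of the 6 libraries held 46.5% of their variance and separated the days, with no library between them.

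**Figure D1:**
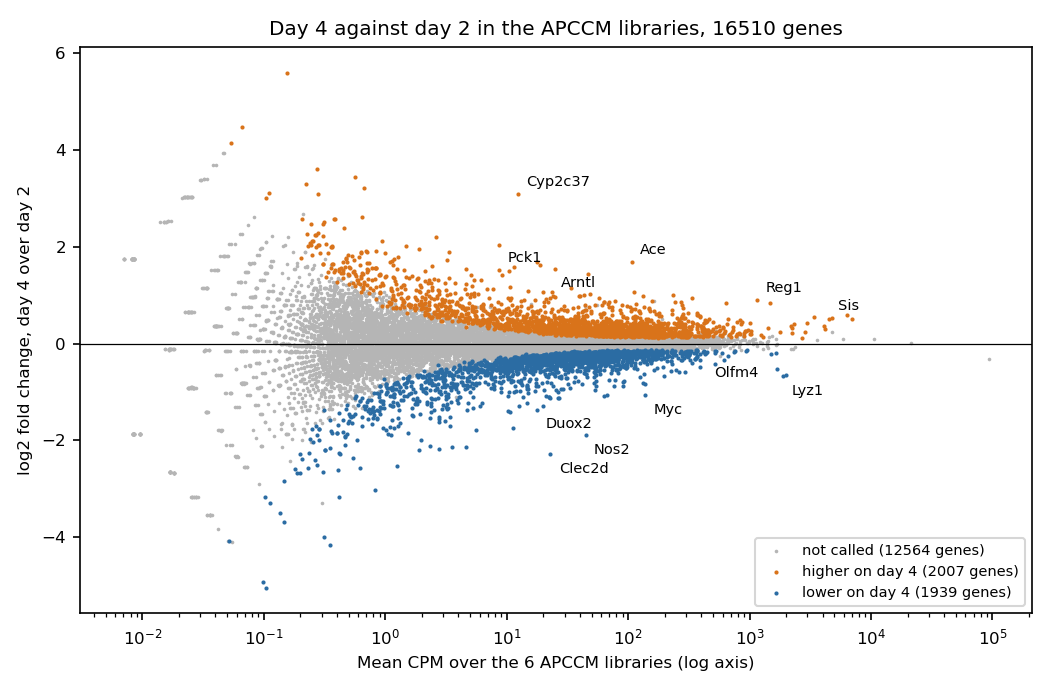
Mean CPM over the 6 APCCM libraries (log axis) against the log2 fold change of day 4 over day 2 for 16510 genes, coloured by call. The 2007 orange genes rose and the 1939 blue genes fell; most lie within 2-fold, and the largest fitted changes belong to genes with the fewest counts.

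Crypt base stem cell genes fell together. Of 16 tested, 13 fell and none rose (median log2 fold change -0.47). In bulk RNA, fewer cells of a type and less RNA per cell cannot be told apart. Olfm4 (ENSMUSG00000022026, chromosome 14, 79984081 to 80023139 on GRCm38), a secreted glycoprotein of crypt base cells, was at 1946, 2067 and 1907 CPM on day 2 and 1448, 1275 and 1415 CPM on day 4 (log2 fold change -0.52, SE 0.05, adjusted p = 6.9e-08). All 3 day 2 libraries lay above all 3 of day 4. Rgmb, a BMP co-receptor, was at 176, 167 and 165 CPM on day 2 and 101, 96.1 and 91.5 CPM on day 4 (log2 fold change -0.81, SE 0.05, adjusted p = 6.3e-11). Sox9, a transcription factor of stem and Paneth cells, was at 158, 168 and 165 CPM on day 2 and 107, 103 and 106 CPM on day 4 (log2 fold change -0.63, SE 0.05, adjusted p = 4.1e-09). For both, each day 4 library was below every day 2 library, and replicates differed little. Cdca7, a nuclear protein of dividing crypt cells, changed by -0.55, the RNA-binding protein Msi1 by -0.56, and Ascl2, the transcription factor that sets stem cell identity, by -0.79 (adjusted p = 1.4e-04). Lgr5 itself, the R-spondin receptor that marks these cells, was at 105, 102 and 113 CPM on day 2 and 97.3, 93.7 and 96.2 CPM on day 4 and did not pass (log2 fold change -0.15, SE 0.06, adjusted p = 0.090), although the days did not overlap. It passed in the fits of the 12 conditioned medium libraries (adjusted p = 0.048) and of the 6 APCCM libraries (adjusted p = 0.015). The growth regulator Lrig1 (0.02) and the membrane protein Prom1 (-0.02) did not pass and overlapped between days. Over the list, log2 fold changes ran from -0.83 to 0.02.

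Wnt and beta-catenin targets share members with the stem cell list. Of 19 tested, 9 fell and none rose (median -0.16, or -0.28 without replicate 3 of day 2 and -0.26 without replicate 1 of day 4). Myc, the growth regulator, showed the largest drop and was at 189.8, 195 and 177 CPM on day 2 and 92.3, 86.7 and 88.9 CPM on day 4 (log2 fold change -1.07, SE 0.06, adjusted p = 4.3e-11). Axin2, a scaffold of the beta-catenin degradation complex and a feedback target, was at 281, 271 and 256 CPM on day 2 and 189, 171 and 189 CPM on day 4 (log2 fold change -0.56, SE 0.06, adjusted p = 2.4e-07). Ephb3, a receptor that positions crypt cells, changed by -0.60 and the adhesion receptor Cd44 by -0.38 (adjusted p = 2.2e-05). No library of one day reached into the other for any of the 4. Of 5 tested secreted Wnt antagonists, none passed, and all stood below 1 CPM on average on both days.

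Notch signalling keeps stem and absorptive progenitor cells apart from secretory cells, and 8 of 11 tested genes of the pathway and its fate factors fell, with none rising (median -0.36). Without replicate 2 of day 4 the count of falling genes was 5. With no filter on low counts, and in the fits limited to conditioned medium or APCCM libraries, 1 rose. Hes1, the Notch target that represses secretory fate, was at 64.7, 67.3 and 68.9 CPM on day 2 and 41.9, 43.1 and 42.9 CPM on day 4 (log2 fold change -0.65, SE 0.05, adjusted p = 1.6e-09). Atoh1, the secretory fate factor that Hes1 represses, was at 22.8, 18.7 and 18.05 CPM on day 2 and 10.7, 10.3 and 10.3 CPM on day 4 (log2 fold change -0.93, SE 0.10, adjusted p = 1.7e-07). Both sides of this switch were lower in each library of day 4. Nrarp, a feedback inhibitor of Notch, was at 40.3, 41.01 and 40.9 CPM on day 2 and 30.3, 30.3 and 32.2 CPM on day 4 (log2 fold change -0.40, SE 0.06, adjusted p = 3.2e-05), and the ligand Jag1 at 67.7, 60.1 and 58.2 CPM on day 2 and 49.1, 42.02 and 43.3 CPM on day 4 (log2 fold change -0.47, SE 0.08, adjusted p = 1.8e-04). The days did not overlap in either. Among the ligands of secretory cells, Dll1 changed by -0.18 and did not pass (adjusted p = 0.081). It passed in the fits of the 12 conditioned medium libraries (adjusted p = 0.038) and of the 6 APCCM libraries (adjusted p = 0.0094).

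Mitosis and DNA replication genes did not move alike. Of 18 mitosis genes, 15 fell and none rose (median -0.29), whereas 2 of 18 genes of G1/S and replication fell and none rose (median -0.09), a share near the 11.7% of all genes. The second count was 4 to 6 in the fits limited to conditioned medium or APCCM libraries. Cenpe, a kinetochore motor, was at 137, 133 and 127 CPM on day 2 and 90.1, 94.3 and 95.4 CPM on day 4 (log2 fold change -0.50, SE 0.05, adjusted p = 1.4e-07). Aurka, a spindle kinase, was at 51.96, 55.5 and 50.6 CPM on day 2 and 34.00, 38.4 and 38.7 CPM on day 4 (log2 fold change -0.51, SE 0.06, adjusted p = 2.3e-06). Plk1, a further mitotic kinase, was at 106, 114 and 101 CPM on day 2 and 76.6, 77.96 and 75.5 CPM on day 4 (log2 fold change -0.48, SE 0.07, adjusted p = 7.1e-06). These 3 genes were lower on day 4 in every library, by 1.41, 1.42 and 1.40-fold. Ccnb2, a mitotic cyclin, changed by -0.45. The proliferation marker Mki67 did not pass and overlapped, at 870.1, 828 and 837 CPM on day 2 and 798, 837 and 764 CPM on day 4 (log2 fold change -0.08, SE 0.05, adjusted p = 0.26). In the replication list Ccne2, a cyclin of S phase entry, changed by -0.60 (adjusted p = 6.9e-04) and Rrm2, which makes deoxynucleotides, by -0.26 (adjusted p = 0.0028).

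Of 20 cell cycle inhibitors and p53 targets, 2 rose and 4 fell (median -0.04), or 2 fell without replicate 3 of day 2. Cdkn2b, an inhibitor of G1 kinases, was at 21.9, 22.6 and 23.98 CPM on day 2 and 35.95, 36.3 and 38.7 CPM on day 4 (log2 fold change 0.70, SE 0.08, adjusted p = 3.0e-07). Btg2, an antiproliferative gene that p53 and growth factors induce, was at 92.5, 90.4 and 88.1 CPM on day 2 and 41.5, 43.1 and 44.3 CPM on day 4 (log2 fold change -1.07, SE 0.05, adjusted p = 1.0e-12), and was lower on day 4 in every library. The pro-apoptotic gene Bbc3 changed by 0.45 and the inhibitor Cdkn1b by -0.27. Of genes of ribosome biogenesis 3 of 19 fell (Nop2, Utp20 and Npm1, -0.19, -0.19 and -0.17) and none rose. That count was 1 without replicate 3 of day 2 or replicate 1 or 3 of day 4, and 8 in the fits limited to conditioned medium or APCCM libraries.

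**Figure D2:**
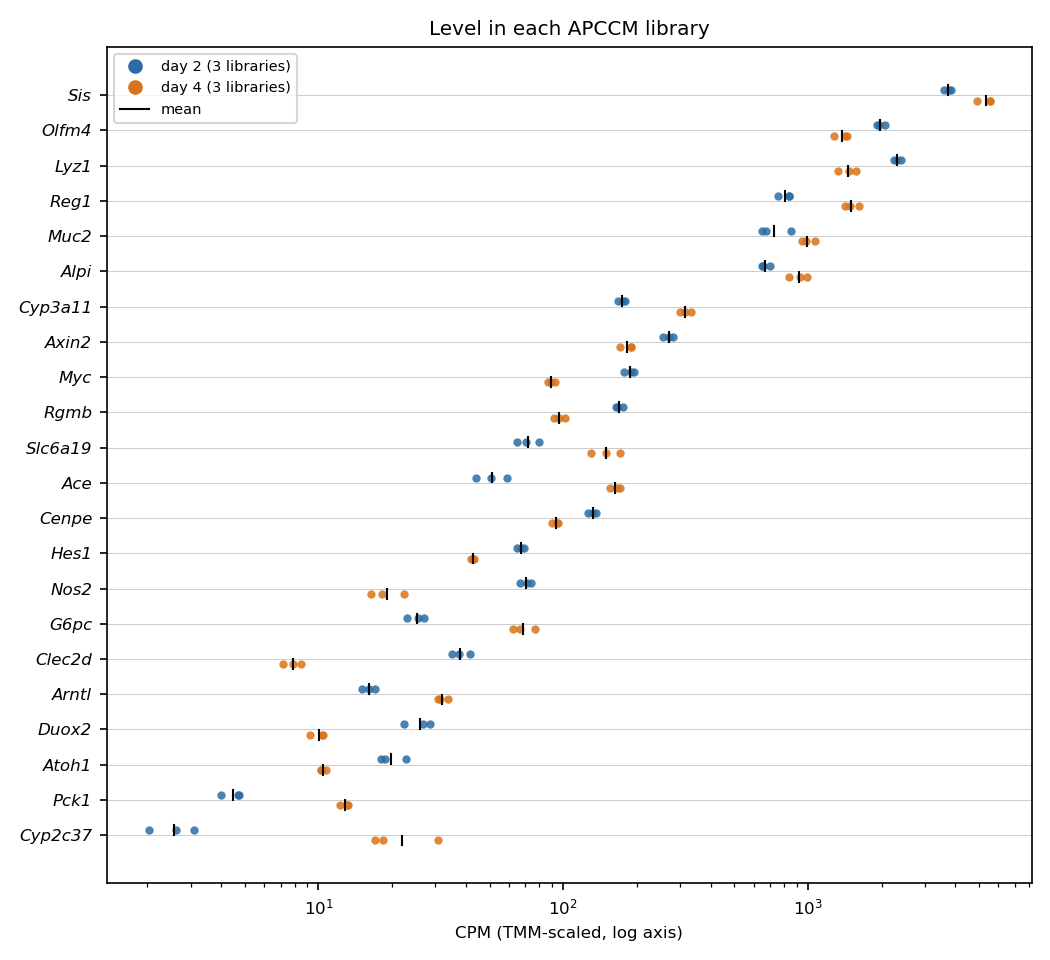
CPM (TMM-scaled, log axis) of 22 named genes in each of the 6 APCCM libraries, day 2 in blue and day 4 in orange, with the mean as a black bar. In all 22 genes the days do not overlap, which was a condition for naming most of them. Cyp2c37 shows the widest gap.

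Genes of absorptive enterocytes, the cells that digest and take up food, rose together. Of 22 tested, 16 rose and 1 fell (median 0.30). Sis, the brush border enzyme sucrase-isomaltase, was at 3836, 3583 and 3787 CPM on day 2 and 5527, 4910.5 and 5543 CPM on day 4 (log2 fold change 0.51, SE 0.06, adjusted p = 6.5e-07). Alpi, the intestinal alkaline phosphatase, was at 702, 658 and 651 CPM on day 2 and 988, 833 and 927 CPM on day 4 (log2 fold change 0.45, SE 0.06, adjusted p = 9.5e-06). Slc6a19, the main carrier for neutral amino acids, was at 79.8, 64.9 and 70.2 CPM on day 2 and 171, 130.3 and 149.7 CPM on day 4 (log2 fold change 1.07, SE 0.10, adjusted p = 2.6e-08). All 3 were higher in each day 4 library, with day 4 replicate 2 the lowest of its day. The peptidase Enpep changed by 0.52. The exception was Krt20, a keratin of the most mature villus cells, at 63.3, 68.4 and 64.1 CPM on day 2 and 38.1, 45.02 and 38.2 CPM on day 4 (log2 fold change -0.69, SE 0.08, adjusted p = 1.3e-06).

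Fat absorption moved with the enterocyte genes: 12 of 18 genes rose and 2 fell (median 0.26), with 0 falling when replicate 3 of day 4 was left out and 1 without replicate 1 or 2 of day 2 or replicate 2 of day 4. Creb3l3, a liver and gut transcription factor of lipid genes, was at 131, 129.7 and 118 CPM on day 2 and 198, 205 and 203 CPM on day 4 (log2 fold change 0.68, SE 0.07, adjusted p = 5.7e-08). Abcg8, one subunit of the sterol exporter of the brush border, was at 113, 119.96 and 112 CPM on day 2 and 168, 159 and 164 CPM on day 4 (log2 fold change 0.51, SE 0.05, adjusted p = 1.8e-07). Days did not overlap in either gene. Scarb1, the HDL receptor, fell (log2 fold change -0.22, SE 0.06, adjusted p = 0.0097) but missed the threshold without replicate 3 of day 4 (adjusted p = 0.052). Along the villus axis the picture was mixed, as 1 of 12 villus tip genes rose (Creb3l3; 2 without replicate 2 of day 4) and 3 fell, among them Krt20 and Egfr (-0.29). Of 9 antimicrobial genes of the lower villus, 4 rose and 2 fell, and 1 fell when replicate 1 or 2 of day 2 or replicate 2 or 3 of day 4 was left out. Reg1, a lectin-like secreted protein, was at 758, 835 and 835 CPM on day 2 and 1615, 1415 and 1489.97 CPM on day 4 (log2 fold change 0.90, SE 0.05, adjusted p = 4.3e-11), and Reg3g, a bactericidal lectin, at 454, 509 and 415 CPM on day 2 and 778, 811 and 865 CPM on day 4 (log2 fold change 0.83, SE 0.07, adjusted p = 2.3e-09). Both were higher in every day 4 library, by 1.86 and 1.78-fold. Of the 2 that fell, Il18, a cytokine, stood at -0.47 (adjusted p = 0.044) and lost its call in the same 4 settings as the count (adjusted p 0.052 to 0.22).

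Enzymes that modify drugs, bile acids and other foreign or fatty molecules rose together. Of 20 xenobiotic enzyme genes, 16 rose and none fell (median 0.44). HNF4, a nuclear receptor of gut and liver, is a known regulator of many enterocyte genes. RefSeq promoter windows (build GRCm38.p6, 250 bases before to 50 after the start of the gene) were searched for the HNF4 core CAAAGTCCA on both strands. It occurred in 156 of all 32851 windows (0.475%). Counting a gene if any of its windows matched, it occurred in 3 of the 20 xenobiotic genes (Cyp2c65, Cyp3a11 and Sult1b1). It also occurred in 2 of 20 enterocyte genes with a window (Alpi and Treh). None of the clock, stem cell or Wnt target genes with a window matched. The TCF core CTTTGAT, a site of the Wnt pathway, was searched in the same way and occurred in 1225 of all windows (3.73%). It occurred in 2 of 12 Wnt target genes (Sp5 and Tnfrsf19), 1 of 10 stem cell genes (Tnfrsf19) and 1 of 20 enterocyte genes (Cubn). No xenobiotic or clock gene matched it. Shares of genes and of windows are unlike units, and no test compared them. The windows of 3 genes that rose are shown 5′ to 3′ on the strand of the gene, with the HNF4 match in capitals. They cover chr5:145879805-145880104 (minus strand), chr19:39060756-39061055 (plus strand) and chr1:87101557-87101856 (minus strand).
Cyp3a11: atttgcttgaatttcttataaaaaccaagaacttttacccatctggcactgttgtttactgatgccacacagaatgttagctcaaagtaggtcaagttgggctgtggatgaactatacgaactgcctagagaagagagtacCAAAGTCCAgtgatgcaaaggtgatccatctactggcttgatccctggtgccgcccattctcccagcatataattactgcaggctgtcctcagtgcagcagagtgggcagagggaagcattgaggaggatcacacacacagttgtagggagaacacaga
Cyp2c65: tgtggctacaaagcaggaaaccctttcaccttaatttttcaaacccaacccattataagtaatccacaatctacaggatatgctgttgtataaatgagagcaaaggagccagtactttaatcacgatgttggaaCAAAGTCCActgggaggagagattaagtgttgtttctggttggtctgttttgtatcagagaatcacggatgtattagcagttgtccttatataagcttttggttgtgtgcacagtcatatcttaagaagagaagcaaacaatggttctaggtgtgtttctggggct
Alpi: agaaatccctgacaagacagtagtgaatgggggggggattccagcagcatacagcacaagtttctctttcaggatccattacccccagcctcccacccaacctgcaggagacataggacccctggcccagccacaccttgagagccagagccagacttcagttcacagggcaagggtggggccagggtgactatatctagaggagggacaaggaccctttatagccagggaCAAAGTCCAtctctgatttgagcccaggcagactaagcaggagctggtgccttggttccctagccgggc
A match describes these letters only, and binding was not measured.

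Cyp3a11 (ENSMUSG00000056035, chromosome 5, 145854426 to 145879964), the main drug-oxidising P450 of mouse gut and liver, was at 175, 179 and 167 CPM on day 2 and 333, 300.01 and 315 CPM on day 4 (log2 fold change 0.86, SE 0.06, adjusted p = 5.8e-10). Ugt2b36, which couples glucuronic acid to its substrates, was at 28.7, 25.02 and 27.1 CPM on day 2 and 60.2, 48.5 and 52.2 CPM on day 4 (log2 fold change 0.99, SE 0.07, adjusted p = 5.8e-10). Ces2a, a carboxylesterase, was at 200.2, 207 and 174 CPM on day 2 and 326, 398 and 334 CPM on day 4 (log2 fold change 0.86, SE 0.08, adjusted p = 1.8e-08). Each was higher in all day 4 libraries, by 1.82, 1.99 and 1.82-fold. Cyp2d26 changed by 0.82 and Cyp2c65, whose window is shown above, by 0.35 (adjusted p = 1.6e-04). The largest rise of any gene under the naming rule was in the same class: Cyp2c37 was at 2.61, 2.03 and 3.09 CPM on day 2 and 30.8, 16.99 and 18.3 CPM on day 4 (log2 fold change 3.08, SE 0.25, adjusted p = 5.3e-09), with replicate 1 the highest of day 4. Cyp2c genes are near-identical copies, and reads that fit several were not counted, so single values of that family are uncertain.

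Of 10 tested genes of vitamin A handling, 6 rose and none fell (median 0.27). Aldh1a1, which makes retinoic acid and stands in both lists, was at 316, 306 and 275 CPM on day 2 and 463, 443 and 448 CPM on day 4 (log2 fold change 0.60, SE 0.07, adjusted p = 7.2e-07). The retinal reductase Dhrs3 changed by 0.30 and the retinol dehydrogenase Rdh7 by 0.24. Rbp2, the retinol carrier of enterocytes, passed (log2 fold change 0.22, SE 0.08, adjusted p = 0.039) but missed the threshold when any of 5 of the 6 libraries was left out (adjusted p 0.068 to 0.27). Genes that NRF2 induces under oxidative stress split: 6 of 15 rose and 2 fell (median 0.23), and 1 fell without replicate 2 of day 2. Nqo1, a quinone reductase, was at 75.3, 75.4 and 71.1 CPM on day 2 and 114, 102 and 108 CPM on day 4 (log2 fold change 0.55, SE 0.09, adjusted p = 6.8e-05). Gstm1, a glutathione transferase, was at 582, 586 and 510.1 CPM on day 2 and 767, 735 and 716 CPM on day 4 (log2 fold change 0.40, SE 0.08, adjusted p = 4.2e-04). Slc7a11, the cystine carrier of the same list, was lower on day 4 at 64.3, 72.3 and 78.7 CPM on day 2 and 56.2, 57.3 and 51.99 CPM on day 4 (log2 fold change -0.38, SE 0.09, adjusted p = 0.0023). Gpx2, the glutathione peroxidase of the gut, passed at -0.23, in the same direction, but not without replicate 2 of day 2 (adjusted p = 0.069).

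**Figure D3:**
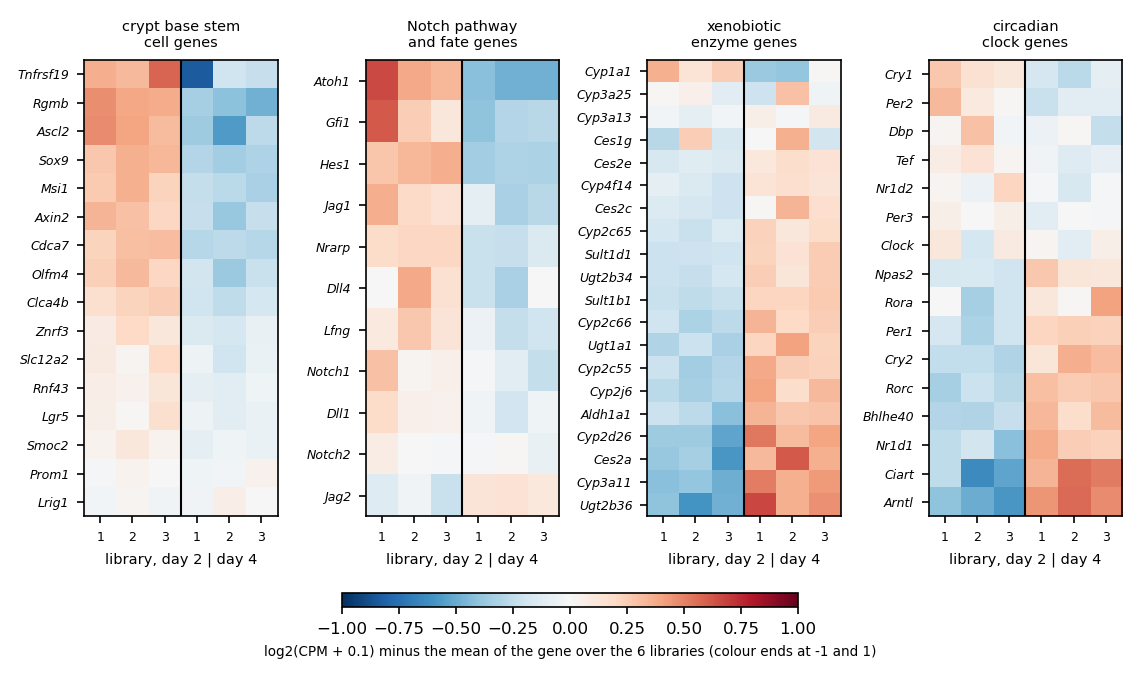
Colour map of log2(CPM + 0.1) minus the mean of the gene over the 6 APCCM libraries, for all tested members of 4 lists, with libraries 1 to 3 of day 2 left and of day 4 right of the line. Most stem cell and Notch genes are red on day 2, most xenobiotic genes red on day 4, and the clock genes split.

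Secretory lineages did not move as 1 group. Among 12 Paneth cell genes, 4 rose and 5 fell (median 0.04, and -0.01 without replicate 3 of day 4). Lyz1, the lysozyme that defines the cell, was at 2253, 2394 and 2311 CPM on day 2 and 1576, 1327 and 1478 CPM on day 4 (log2 fold change -0.67, SE 0.06, adjusted p = 1.3e-08), and the protease Mmp7 at 111, 116 and 118 CPM on day 2 and 64.7, 68.7 and 65.5 CPM on day 4 (log2 fold change -0.79, SE 0.07, adjusted p = 1.3e-08). The defensins Defa30 and Defa24 went the other way. Defa30 was at 545, 563 and 485 CPM on day 2 and 662, 656 and 704 CPM on day 4 (log2 fold change 0.34, SE 0.06, adjusted p = 3.4e-04), and Defa24 changed by 0.24. Defensins are near-identical copies and their single values are uncertain. No day overlapped in these 4 genes, but the naming rule required this and took members of both directions. That markers of 1 cell type parted in direction rests on the list count, with 4 rising and 5 falling.

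Of 11 goblet cell genes, 2 rose and 4 fell (median -0.16). Muc2, the gel-forming mucin, was at 855, 650.3 and 675 CPM on day 2 and 1065, 979 and 942 CPM on day 4 (log2 fold change 0.45, SE 0.09, adjusted p = 5.3e-04). Fcgbp, a mucus protein bound to it, was at 4161, 3455 and 3651 CPM on day 2 and 4635, 4665 and 4602 CPM on day 4 (log2 fold change 0.30, SE 0.08, adjusted p = 0.0061). Clca1, a mucus-processing protease, was at 231, 258 and 241 CPM on day 2 and 148, 149.98 and 161 CPM on day 4 (log2 fold change -0.67, SE 0.08, adjusted p = 2.3e-06). The mucus proteins Muc2 and Fcgbp were higher and Clca1 lower in all day 4 libraries. Of 16 enteroendocrine genes, which make gut hormones, 6 rose and 1 fell (median 0.24), and 0 fell without replicate 2 or replicate 3 of day 4. Chga, a granule protein, was at 108, 90.6 and 87.97 CPM on day 2 and 156, 154 and 143 CPM on day 4 (log2 fold change 0.66, SE 0.08, adjusted p = 5.3e-07). The hormone Gip changed by 0.63, the granin Chgb by 0.33 and Tph1, the first enzyme of serotonin synthesis, by 0.39. Of 9 tuft cell genes, 2 rose and none fell (median 0.32). That count was 1 when replicate 2 or 3 of day 2 or replicate 1 of day 4 was left out. Trpm5, a cation channel of tuft cells, was at 12.4, 9.09 and 11.1 CPM on day 2 and 17.8, 16.9 and 14.3 CPM on day 4 (log2 fold change 0.58, SE 0.13, adjusted p = 0.0014), and the tuft cell kinase Dclk1 at 18.4, 14.8 and 17.5 CPM on day 2 and 23.8, 19.9 and 19.96 CPM on day 4 (log2 fold change 0.32, SE 0.12, adjusted p = 0.055), which did not pass. Dclk1 passed in the fits of the 12 conditioned medium libraries (adjusted p = 0.048) and of the 6 APCCM libraries (adjusted p = 0.012). Of 6 M cell genes, 1 fell (Anxa5, -0.27) and none rose, and it missed the threshold without replicate 2 or 3 of either day (adjusted p 0.088 to 0.16).

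**Figure D4:**
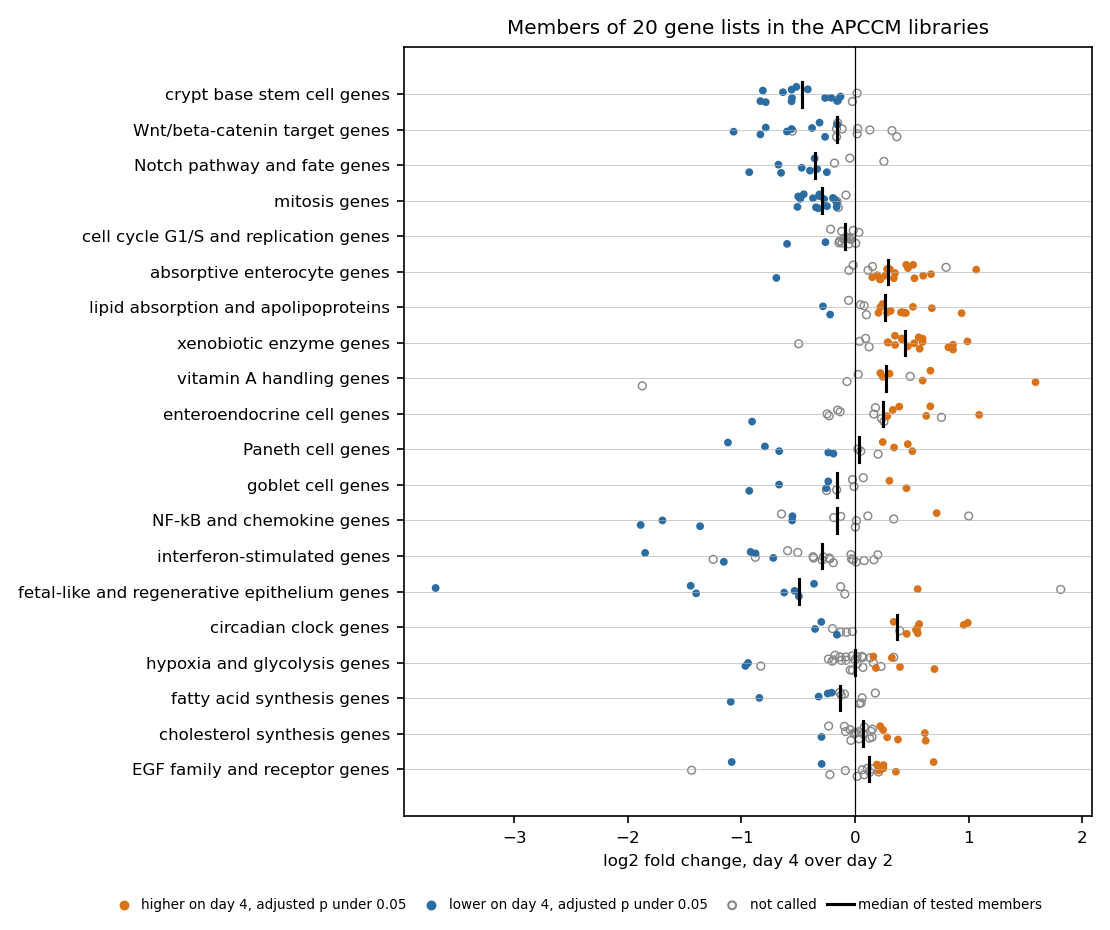
log2 fold change of day 4 over day 2 for every tested member of 20 gene lists, filled where the adjusted p was under 0.05, with the median as a black bar. The medians of the stem cell, Notch and mitosis lists lie left of 0 and those of the enterocyte, lipid absorption and xenobiotic lists right of it. Each of these lists except mitosis has members on both sides, as do the Paneth, hypoxia and clock lists.

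Oxidant-producing enzymes of the epithelium held 3 of the 12 largest declines under the naming rule. Nos2 (ENSMUSG00000020826, chromosome 11, 78920787 to 78960254), the inducible nitric oxide synthase, was at 71.4, 73.8 and 66.7 CPM on day 2 and 18.2, 16.4 and 22.4 CPM on day 4 (log2 fold change -1.89, SE 0.11, adjusted p = 4.3e-11), a 3.70-fold decline. Duox2, which makes hydrogen peroxide at the apical surface, was at 22.3, 28.6 and 26.7 CPM on day 2 and 9.25, 10.4 and 10.5 CPM on day 4 (log2 fold change -1.36, SE 0.10, adjusted p = 7.6e-10), and its maturation factor Duoxa2 at 4.56, 6.49 and 4.66 CPM on day 2 and 1.13, 1.91 and 1.77 CPM on day 4 (log2 fold change -1.70, SE 0.23, adjusted p = 7.5e-06). All day 4 libraries lay below the lowest of day 2 in these 3 genes. These genes stand in the list of NF-kB and chemokine genes, where 5 of 14 fell and 1 rose (median -0.16). The chemokine Ccl20 was at 22.5 ± 0.902 CPM on day 2 and 15.3 ± 1.98 CPM on day 4 (mean ± SD, n = 3 libraries per day; log2 fold change -0.55, SE 0.10, adjusted p = 1.6e-04), whereas Nfkbia, the inhibitor that NF-kB induces against itself, was at 74.4, 85.1 and 83.3 CPM on day 2 and 134, 127 and 138 CPM on day 4 (log2 fold change 0.72, SE 0.08, adjusted p = 2.1e-07). Ccl20 was lower and Nfkbia higher in every day 4 library.

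Of 23 interferon-stimulated genes, 5 fell and none rose (median -0.29, or -0.45 without replicate 2 of day 4), against 11.7% of all genes falling. Stat2, a transcription factor of the response, was at 42.5, 46.3 and 42.2 CPM on day 2 and 21.4, 23.9 and 23.9 CPM on day 4 (log2 fold change -0.92, SE 0.07, adjusted p = 1.1e-09). Oasl2, an antiviral protein, was at 17.7, 23.2 and 16.5 CPM on day 2 and 8.12, 14.1 and 9.12 CPM on day 4 (log2 fold change -0.88, SE 0.17, adjusted p = 3.4e-04), and Ifit1, which binds viral RNA, at 4.66, 5.91 and 5.48 CPM on day 2 and 1.91, 2.74 and 2.53 CPM on day 4 (log2 fold change -1.16, SE 0.19, adjusted p = 5.8e-05). Day 4 replicate 2 was the highest of its day in Ifit1 and Oasl2 and stayed below every day 2 library. Ifit1bl1, a relative of Ifit1 with near-identical stretches, changed by -1.75. Of 11 antigen presentation genes, 2 rose (Tapbp, 0.30, and Tap2, 0.41) and none fell, or 4 rose without replicate 2 of day 2.

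Genes of fetal and regenerating epithelium fell in 7 of 11 cases, and 1 rose (median -0.50), or 0 without replicate 1 of either day. Ly6a, the surface protein Sca-1, was at 11.2, 17.5 and 15.9 CPM on day 2 and 6.41, 5.52 and 4.98 CPM on day 4 (log2 fold change -1.40, SE 0.15, adjusted p = 2.1e-07). Anxa1, a phospholipid-binding protein, was at 11.3, 14.9 and 14.9 CPM on day 2 and 9.39, 8.42 and 8.74 CPM on day 4 (log2 fold change -0.62, SE 0.15, adjusted p = 0.0031). Clu, a secreted chaperone of revival stem cells, was at 12.95, 19.9 and 17.8 CPM on day 2 and 26.8, 24.1 and 23.2 CPM on day 4 and passed (log2 fold change 0.55, SE 0.17, adjusted p = 0.018) in the opposite direction, but missed the threshold without replicate 1 of day 2 (adjusted p = 0.13) or of day 4 (adjusted p = 0.076). YAP targets were mixed, with 2 of 11 rising (Crim1, 0.21, and Amotl2, 0.23) and 1 falling, Areg. Only 1 rose when replicate 1 of either day, replicate 2 of either day or replicate 3 of day 2 was left out. Of 10 BMP targets, 3 rose and 1 fell (Hes1), among the rising ones Smad7 (0.38) and Id1 (0.39), and 1 rose without replicate 1 or 3 of either day.

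Ligands and receptors of the EGF family parted. Of 18 tested, 6 rose and 2 fell (median 0.12). Areg, a ligand of the EGF receptor, was at 81.7, 89.3 and 85.1 CPM on day 2 and 37.1, 44.9 and 38.8 CPM on day 4 (log2 fold change -1.09, SE 0.07, adjusted p = 1.6e-10). Hbegf, another ligand, was at 13.5, 14.2 and 15.2 CPM on day 2 and 23.4, 24.1 and 21.9 CPM on day 4 (log2 fold change 0.69, SE 0.09, adjusted p = 2.3e-06). Erbb3, a receptor of the family, was at 569, 585 and 560.1 CPM on day 2 and 673, 687 and 679.9 CPM on day 4 (log2 fold change 0.25, SE 0.04, adjusted p = 1.8e-04), and Egfr changed by -0.29. All day 4 libraries were below day 2 for Areg and above it for Hbegf and Erbb3. Among 15 immediate early genes, which respond to signals within minutes, 4 rose and 1 fell, and 2 fell without replicate 1 of either day. Dusp1, a phosphatase of MAP kinases, was at 3.12, 3.77 and 3.70 CPM on day 2 and 9.34, 8.83 and 8.31 CPM on day 4 (log2 fold change 1.32, SE 0.13, adjusted p = 7.1e-08), Zfp36, which destabilises messenger RNAs, changed by 0.81 and Jun by -0.69.

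Clock genes form a loop in which Arntl and Clock switch on Per and Cry genes, which act back on them, mostly through E-box sequences. Of 16 tested, 8 rose and 3 fell (median 0.37), and 1 fell without replicate 1 of day 2. Arntl was at 17.1, 16.04 and 15.1 CPM on day 2 and 30.9, 33.7 and 31.5 CPM on day 4 (log2 fold change 0.99, SE 0.08, adjusted p = 2.4e-09). Ciart, a repressor of that activator, was at 3.94, 3.01 and 3.24 CPM on day 2 and 6.02, 7.02 and 6.84 CPM on day 4 (log2 fold change 0.96, SE 0.13, adjusted p = 6.5e-06). They rose by 1.99 and 1.94-fold, with no overlap. Nr1d1, a repressor of Arntl, changed by 0.56, Per1 by 0.46, Cry2 by 0.54 and Bhlhe40, a further repressor, by 0.55 (adjusted p = 1.8e-08). Cry1 was lower on day 4 at 33.2, 30.6 and 29.9 CPM on day 2 and 24.5, 22.9 and 25.95 CPM on day 4 (log2 fold change -0.35, SE 0.08, adjusted p = 0.0013). Per2 passed (log2 fold change -0.30, SE 0.08, adjusted p = 0.0057) but not without replicate 1 of day 2 (adjusted p = 0.072). The hour of harvest was not tested, since the sources used here do not give it. The E-box CACGTG, which reads the same on both strands, occurred in 2349 of all 32851 windows (7.15%). Counting a gene if any of its windows matched, it occurred in 4 of 13 clock genes (30.8%: Per1, Cry1, Tef and Ciart). In other lists it occurred in 2 of 12 Wnt target, 2 of 20 enterocyte, 1 of 10 stem cell and 1 of 20 xenobiotic genes. Shares of genes and of windows are unlike units, and no test compared them. The windows of Ciart (chr3:95882179-95882478, minus strand), with 3 matches, and of Per1 (chr11:69098699-69098998, plus strand), with 1, are shown for 2 genes that rose.
Ciart: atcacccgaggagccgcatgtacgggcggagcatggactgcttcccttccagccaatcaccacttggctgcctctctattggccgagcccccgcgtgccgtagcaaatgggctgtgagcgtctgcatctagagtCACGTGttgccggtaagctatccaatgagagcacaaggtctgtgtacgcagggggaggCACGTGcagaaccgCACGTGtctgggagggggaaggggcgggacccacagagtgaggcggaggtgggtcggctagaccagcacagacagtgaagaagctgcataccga
Per1: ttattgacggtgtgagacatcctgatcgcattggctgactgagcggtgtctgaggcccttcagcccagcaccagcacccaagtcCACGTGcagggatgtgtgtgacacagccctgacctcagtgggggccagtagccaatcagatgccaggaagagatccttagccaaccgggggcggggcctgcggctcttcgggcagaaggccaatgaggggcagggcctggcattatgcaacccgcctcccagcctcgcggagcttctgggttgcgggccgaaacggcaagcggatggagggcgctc
Cry1 carries the same letters and fell, so a match did not go with 1 direction.

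Among the 12 largest rises under the naming rule were 2 enzymes of glucose synthesis, a pathway for which no list was used. Pck1, the first committed enzyme of glucose synthesis, was at 4.71, 4.75 and 4.01 CPM on day 2 and 13.2, 12.2 and 13.04 CPM on day 4 (log2 fold change 1.52, SE 0.14, adjusted p = 2.6e-08). G6pc, its last enzyme, was at 23.03, 25.6 and 26.9 CPM on day 2 and 76.6, 62.2 and 66.5 CPM on day 4 (log2 fold change 1.44, SE 0.09, adjusted p = 1.6e-10). They rose by 2.86 and 2.72-fold, and the days did not overlap. Among hypoxia and glycolysis genes 5 of 29 rose and 2 fell (median 0.00, and -0.02 without replicate 1 of either day). Ndrg1, a stress gene that hypoxia induces, was at 182, 173 and 167 CPM on day 2 and 294, 275 and 279 CPM on day 4 (log2 fold change 0.70, SE 0.05, adjusted p = 5.8e-10). Pfkfb4 and Pfkfb3, 2 of the enzymes that set the glycolytic signal fructose 2,6-bisphosphate, moved apart, though the naming rule took members of both directions. Pfkfb4 changed by 0.40, and Pfkfb3 was at 33.7, 36.2 and 32.04 CPM on day 2 and 17.6, 17.5 and 17.1 CPM on day 4 (log2 fold change -0.97, SE 0.07, adjusted p = 3.6e-10).

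Lipid genes were grouped as synthesis of fatty acids, their oxidation and synthesis of cholesterol. Of 12 fatty acid synthesis genes, 5 fell and none rose (median -0.13). With no filter on low counts, and in the fits limited to conditioned medium or APCCM libraries, 1 rose. Scd1, which desaturates fatty acids, was at 183, 176 and 168 CPM on day 2 and 92.4, 96.6 and 105 CPM on day 4 (log2 fold change -0.84, SE 0.08, adjusted p = 4.7e-08). Acacb and Acaca, the 2 acetyl-CoA carboxylases, changed by -1.09 and -0.32, and the citrate enzyme Acly by -0.21. Of 18 fatty acid oxidation genes, 7 rose and none fell (median 0.15), or 4 without replicate 3 of either day. Acaa2, a thiolase, was at 182, 189.8 and 168 CPM on day 2 and 223, 244 and 244 CPM on day 4 (log2 fold change 0.40, SE 0.05, adjusted p = 4.7e-06). The dehydrogenase Acadm changed by 0.27 and the nuclear receptor Ppara by 0.25. Of 23 cholesterol synthesis genes, 6 rose and 1 fell (median 0.07), and 2 fell without replicate 3 of day 4. In the fit of the 6 APCCM libraries with the replicate number as a block, 10 rose and 2 fell. Insig1, a brake on sterol synthesis, was at 167, 186 and 198 CPM on day 2 and 278, 275 and 289 CPM on day 4 (log2 fold change 0.61, SE 0.06, adjusted p = 3.9e-08). Pmvk, an enzyme of the mevalonate pathway, changed by -0.30.

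Of 21 genes of the ATF4 and amino acid response, 7 rose and 3 fell (median 0.03, and -0.02 without replicate 1 of day 2). Trib3, a pseudokinase that ATF4 induces, was at 9.73, 9.50 and 8.42 CPM on day 2 and 17.3, 15.95 and 17.5 CPM on day 4 (log2 fold change 0.88, SE 0.09, adjusted p = 1.5e-07). The proline enzyme Aldh18a1 changed by 0.33 and the growth inhibitor Ddit4 by -0.43. Of 13 unfolded protein response genes, 2 rose (Herpud1, 0.33, and Xbp1, 0.22) and 2 fell (Sdf2l1, -0.25, and Edem1, -0.17), and 0 or 1 fell when any of the 6 libraries was left out. Among 15 transcription factors of regional identity, 7 rose and 1 fell (median 0.06), and 2 fell without replicate 2 of day 2 or in the fit of the 6 APCCM libraries. Prdm1, the repressor that marks the suckling gut, was at 3.33, 4.00 and 4.11 CPM on day 2 and 7.92, 7.23 and 8.19 CPM on day 4 (log2 fold change 1.03, SE 0.13, adjusted p = 1.4e-06). Gata6, a factor of the small intestine, changed by 0.34 and Bcl6 by -0.80.

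Other genes named for the size of their change belong to no list. Ace, the angiotensin-converting peptidase of the brush border, was at 50.5, 58.7 and 43.9 CPM on day 2 and 169.8, 165 and 155 CPM on day 4 (log2 fold change 1.68, SE 0.08, adjusted p = 5.0e-13). Dnase1, a secreted nuclease, was at 9.42, 7.70 and 8.06 CPM on day 2 and 32.5, 24.7 and 23.9 CPM on day 4 (log2 fold change 1.68, SE 0.16, adjusted p = 2.8e-08). Celsr1, a planar polarity cadherin, was at 9.32, 10.1 and 8.42 CPM on day 2 and 31.2, 26.9 and 27.7 CPM on day 4 (log2 fold change 1.63, SE 0.10, adjusted p = 4.3e-11). They rose by 3.21, 3.21 and 3.09-fold, without overlap. Osgin1 (1.54), Gnal (1.54), Tnnt2 (1.89), Cyp2d34 (1.41) and Cfap61 (1.32) completed the 12 largest rises. On the falling side Clec2d (ENSMUSG00000030157, chromosome 6, 129180615 to 129186534), a ligand that inhibits natural killer cells, was at 41.4, 37.5 and 35.1 CPM on day 2 and 7.14, 8.47 and 7.89 CPM on day 4 (log2 fold change -2.28, SE 0.09, adjusted p = 3.1e-14), a 4.85-fold decline. Sprr2a3, a small proline-rich barrier protein with near-identical copies, was at 5.84, 8.69 and 8.11 CPM on day 2 and 1.66, 2.22 and 1.31 CPM on day 4 (log2 fold change -2.14, SE 0.24, adjusted p = 3.2e-07). Chrna2 (-1.78), Kbtbd8 (-1.41), Banp (-1.23) and Clca3a2 (-1.13) fell as well.

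Whether the change over time was particular to the APCCM libraries was tested with the interaction of title and day, against the 6 libraries with WTCM in the title. Replicate 1 of WTCM day 4 stood apart from its group in an earlier analysis of these data, and without it the difference missed the threshold for Adh4, Cd44, Chgb, Id1, Ifit1bl2, Msi1, Osgin1 and Tph1 (adjusted p 0.060 to 0.14). The interaction passed in 351 genes (2.13%), of which 146 changed more positively and 205 more negatively in APCCM. The count of 146 was 89 without replicate 3 of APCCM day 2, 87 without replicate 1 of WTCM day 2 and 93 without replicate 1 of WTCM day 4, where the count of 205 was 144. For most genes that changed with day in the APCCM libraries, no difference from WTCM passed. In WTCM, 2059 of the 16510 tested genes rose and 1921 fell. Of the 2007 genes that rose here, 1101 (54.9%) were also called as rising in WTCM, 53.5% of those rising there. Of the 1939 falling here, 1070 (55.2%) were called as falling in WTCM, 55.7% of those falling there. In the opposite direction, 19 genes rose here and fell in WTCM, and 34 fell here and rose there. Across all tested genes, the log2 fold changes under the 2 titles had a Pearson correlation of 0.407.

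Among the genes named, the oxidant genes Nos2 and Duoxa2 had the most negative differences. Nos2 changed by -1.89 in APCCM and 0.45 in WTCM, where it was at 7.46, 8.63 and 10.2 CPM on day 2 and 13.9, 12.3 and 9.98 CPM on day 4 (difference -2.34, SE 0.18, adjusted p = 5.0e-08). Duoxa2 changed by -1.70 and 0.55 (difference -2.25, SE 0.37, adjusted p = 7.8e-04), and Duox2 by -1.36 and 0.03 (difference -1.39, SE 0.15, adjusted p = 4.7e-06). Tnf, the cytokine, did not pass in APCCM at 7.78, 8.98 and 7.86 CPM on day 2 and 6.65, 7.49 and 8.31 CPM on day 4 and rose in WTCM (1.59, difference -1.71, SE 0.22, adjusted p = 3.7e-05). Ccl20 fell here and rose in WTCM (difference -1.60, SE 0.15, adjusted p = 4.6e-07). In the NF-kB list 10 of 14 genes had a more negative change in APCCM and none a more positive one. Ifit1bl1 (-1.96, SE 0.25, adjusted p = 3.5e-05) and the stress gene Depp1 (-1.64, SE 0.20, adjusted p = 2.6e-05), which rose under both titles, completed the 6 most negative differences.

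Crypt genes differed in part. Of the 16 stem cell genes, 5 had a more negative change in APCCM. Olfm4 changed by -0.52 here and 0.09 in WTCM (difference -0.61, SE 0.07, adjusted p = 1.5e-05), and Rgmb by -0.81 and -0.24 (difference -0.57, SE 0.07, adjusted p = 2.6e-05). For Lyz1 the changes were -0.67 and 0.07 (difference -0.74, SE 0.08, adjusted p = 6.7e-06), and 7 of 12 Paneth cell genes had a more negative change in APCCM. Muc2 rose under both titles, by 0.45 and 1.20 (difference -0.75, SE 0.13, adjusted p = 9.4e-04). Mitosis, replication and Notch genes showed no interaction call in any member.

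More positive changes in APCCM were found for detoxifying and stress genes. In 8 of 20 xenobiotic genes and in none the other way, the difference passed. Ces2a changed by 0.86 here and -0.26 in WTCM (difference 1.12, SE 0.11, adjusted p = 1.2e-06), and Cyp2c29 by 0.76 and -0.67 (difference 1.43, SE 0.15, adjusted p = 2.1e-06). Cyp2c37 showed the largest difference (2.40, SE 0.44, adjusted p = 0.0022), which missed the threshold without replicate 1 of WTCM day 2 (1.86, adjusted p = 0.055). Ppp1r3b, a glycogen-targeting subunit of a phosphatase, was at 3.69, 4.34 and 5.07 CPM on day 2 and 3.77, 4.03 and 5.74 CPM on day 4, overlapped between days and fell in WTCM (-1.41, difference 1.47, SE 0.23, adjusted p = 3.8e-04). The clock gene Ciart rose here and fell in WTCM (difference 1.31, SE 0.18, adjusted p = 1.1e-04). The nucleoside carrier Slc28a3 (1.28, SE 0.21, adjusted p = 6.6e-04) and Chac1, a glutathione-degrading enzyme (1.27, SE 0.16, adjusted p = 3.3e-05), completed the 6 most positive differences. Of the hypoxia list 10 of 29 genes had a more positive change in APCCM, with 20 falling in WTCM and 2 here.

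**Figure D5:**
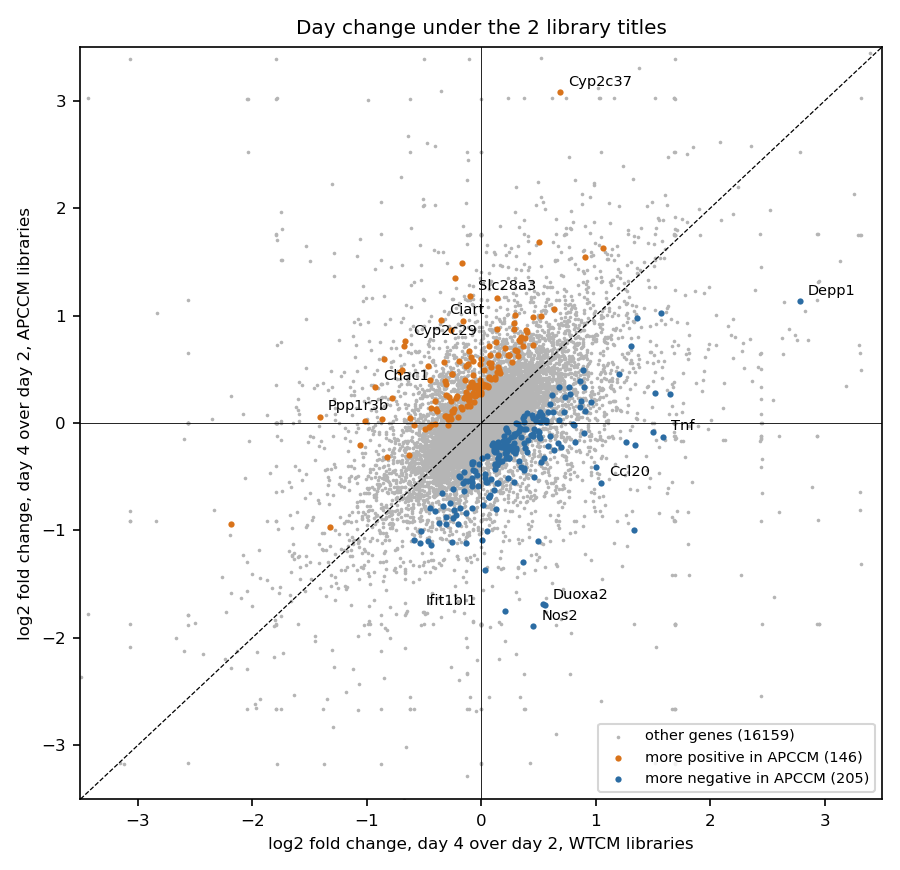
log2 fold change of day 4 over day 2 in the WTCM libraries (horizontal) against the APCCM libraries (vertical) for each gene, with equal change on the dashed line and 40 genes outside the axes. Genes with an interaction call lie off that line, 146 above it and 205 below it.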

How the data were processed

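RNA from 16 libraries of mouse intestinal organoids was sequenced after depletion of ribosomal RNA, per the labels' protocols. The authors deposited raw read counts, 1 table per library with 46078 Ensembl genes and 5 summary lines, which entered neither library sizes nor tests. Trimmomatic 0.36, HISAT2 2.1.0, HTSeq 0.6.1p1 and the build GRCm38 are named in the submitters' processing notes. Strand setting and annotation release were not given in the sources used here. Whether reads of a gene and of an antisense partner were separated is therefore unknown. Reads with several alignments (26.5 to 29.0% in the APCCM libraries) were in no gene. GENCODE M21 gave a symbol and GRCm38 position for 45229 identifiers (98.16%), and promoter windows came from RefSeq (GRCm38.p6).

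All 16 libraries were fitted in 6 groups with edgeR 4.0.16 (limma 3.58.1, R 4.3.3; filterByExpr, TMM factors 0.945 to 0.973 in APCCM), which left 10 residual degrees of freedom and a biological coefficient of variation of 5.96%. The script was tested on simulated data. DESeq2 1.42.0, other scalings and filters, smaller fits and leaving out libraries were alternatives. No 2 libraries agreed within sampling noise (chi-square per degree of freedom over genes 3.38 to 6.02 within a day).

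The 6 libraries, 40 gene lists and tests were chosen with earlier results of these data known. Genes were named by rule: among called protein-coding genes whose days did not overlap and whose mean reached 5 CPM on the higher day, the 12 largest changes each way and up to 4 per list by p, plus the 6 largest interactions each way and 12 fixed genes (Lgr5, Olfm4, Lyz1, Muc2, Chga, Dclk1, Alpi, Sis, Mki67, Axin2, Notum and Apc). Enpep, Ascl2, Msi1, Prom1, Lrig1, Dll1, Nkd1, Nr1d1, Per1, Cry2, Ciart as a clock gene, Cyp2c65, Pdgfrb, Tubb3, Gm26917 and the genes of the closing section were chosen after their values were seen. A few genes that the rule picks are not reported here.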

Additional observations from a re-analysis of the deposited data

Results flagged for a closer look

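For 48 of the genes named, the day change differed between the APCCM and the WTCM libraries by the interaction test (quasi-likelihood, edgeR, Benjamini-Hochberg adjustment across tested genes). Each value is the log2 fold change in APCCM minus that in WTCM, from 3 libraries per title and day. Crypt, Wnt and secretory cell genes with a more negative change in APCCM were Muc2 (-0.75), Lyz1 (-0.74), Mmp7 (-0.71), Clca3a2 (-0.69), Olfm4 (-0.61), Rgmb (-0.57), Defa24 (-0.48), Tph1 (-0.47), Msi1 (-0.40), Chgb (-0.35) and Cd44 (-0.30). Inflammatory, antiviral and oxidant genes with a more negative change in APCCM were Nos2 (-2.34), Duoxa2 (-2.25), Ifit1bl1 (-1.96), Tnf (-1.71), Ccl20 (-1.60), Nox1 (-1.59), Duox2 (-1.39), Ifit1bl2 (-0.83), Nfkbia (-0.59), Areg (-0.50) and Noxa1 (-0.41). Detoxifying, absorptive and vitamin A genes with a more positive change in APCCM were Cyp2c37 (2.40), Cyp2c29 (1.43), Ace (1.18), Ces2a (1.12), Gstm1 (0.85), Nqo1 (0.66), Osgin1 (0.64), Aldh1a1 (0.60), Ugt2b36 (0.54), Cyp3a11 (0.47), Adh1 (0.44) and Adh4 (0.43). Clock genes with a more positive change in APCCM were Ciart (1.31), Bhlhe40 (0.56) and Arntl (0.47). Metabolic, stress and other genes with a more negative change in APCCM were Depp1 (-1.64) and Jun (-0.76). Metabolic, stress and other genes with a more positive change in APCCM were Ppp1r3b (1.47), Slc28a3 (1.28), Chac1 (1.27), Trib3 (0.74), Id1 (0.71), Celsr1 (0.57), Ndrg1 (0.49), Ppara (0.46) and Pfkfb3 (0.36). When single libraries of either title were left out in turn, the difference missed the threshold at least once for Adh4, Arntl, Cd44, Celsr1, Chgb, Cyp2c37, Id1, Ifit1bl2, Msi1, Osgin1, Pfkfb3 and Tph1 (adjusted p 0.051 to 0.15). Without replicate 1 of WTCM day 4 it did so for Adh4, Cd44, Chgb, Id1, Ifit1bl2, Msi1, Osgin1 and Tph1. Since the titles can name the cells or the medium, the difference compares libraries by title.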

How the results depend on the processing

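Among the 165 named genes, no called day change or interaction changed direction under the 22 alternatives. Genes rising numbered 1572 to 1715 and falling 1500 to 1714 when an APCCM library was left out, and 380 to 404 changed at least 2-fold. That last count was 287 with the filter of 1 CPM in 3 libraries, which tests fewer genes. In the fit of 12 conditioned medium libraries the interaction passed for 236 genes more positive and 332 more negative in APCCM (the cause was not tested). Without single libraries the interaction counts were 87 to 147 and 144 to 186. The share of rising among called genes was 48.5 to 54.2% over the alternatives, and the median over all genes moved by less than 0.1 on the log2 scale.

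Deviations from the group means correlated across days at 0.103, 0.147 and 0.0879 for same-numbered libraries. For differently numbered ones the correlations ran from -0.205 to 0.111. These values cannot settle whether replicate numbers pair the libraries. With the replicate number as a block, 1817 genes rose and 1739 fell in 16 libraries, and 2524 and 2679 in the 6 APCCM libraries, where 2189 rose and 2261 fell without the block. On the second principal component of those 6 (15.8% of variance), replicate 2 of each day stood apart, at -16.8 and -8.33 against 2.58 to 8.57. The interaction counted 97 genes more positive in APCCM with that block.

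Of 3599 day changes and interaction values of the named genes under the alternatives, 3414 kept their side of the threshold, 164 lost the call and 21 gained it. Of 1280 counts of list members, 110 moved by over 1.5 times, and 39 of 639 list medians moved by more than the spread between replicates. In the lists of hypoxia, unfolded protein response, ATF4, immediate early, BMP target, YAP target, villus tip and Paneth cell genes, 20 medians took the other sign. Depth limits genes near 0 CPM, where fitted fold changes rest on few counts.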

Other observations

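Gene families were counted by symbol, a grouping chosen after the values were seen, so the counts are descriptions. Against 12.2% of all genes rising and 11.7% falling, 23 of 49 cytochrome P450 genes rose on day 4 and 1 fell, and 11 of 17 Ugt genes, whose enzymes add glucuronic acid, rose and 0 fell. Alcohol dehydrogenases rose in 5 of 5 cases (Adh1 0.84, Adh4 1.06, Adh5 0.24, Adh6a 0.43 and Adh7 0.68 on the log2 scale) and carboxylesterases in 7 of 13. Of 14 Klf transcription factors, several of them regulators of epithelial maturation, 7 rose and 0 fell.

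Declines gathered in other families. All 5 tested Duox, Duoxa and Nox genes fell (median -1.09). Beside Duox2 and Duoxa2 they were the oxidase Nox1 (-1.09) and its partners Noxa1 (-0.22) and Noxo1 (-0.35). In the WTCM libraries Nox1 (0.50) and Noxa1 (0.19) rose and 0 fell, and the difference between titles passed for 4, all but Noxo1. Noxa1 missed the threshold without replicate 1 of day 4 (adjusted p = 0.058). Messages of replication-dependent and related histones with the Hist prefix mostly lack a poly(A) tail and are kept by ribosomal depletion. Of 55 tested, 27 fell and 2 rose, and 42 fell in WTCM. Summed over all 64 such genes before TMM scaling, they stood at 4800, 5430 and 4790 CPM on day 2. On day 4 the sums were 4370, 4940 and 4690 CPM, so the days overlapped. Zinc finger genes with the prefix Zfp fell in 77 of 333 cases (23.1%) and rose in 25 (7.51%), with no interaction call in either direction. Of 5 Ifit genes, 4 fell (Ifit1 -1.16, Ifit2 -0.72, Ifit1bl1 -1.75 and Ifit1bl2 -0.55) and 0 rose. Ifit2 missed the threshold without replicate 3 of day 2 (adjusted p = 0.21) or replicate 2 of day 4 (adjusted p = 0.13). The difference from WTCM passed for 2 of them, Ifit1bl1 (-1.96) and Ifit1bl2 (-0.83). Solute carriers leaned upward, with 64 of 262 rising and 25 falling. Of 76 ribosomal protein genes, many of which have near-identical pseudogenes, 12 rose and 1 fell.

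By total exon length, the tested genes with a length in the annotation were put into 3 classes of 5476 genes each. The short class held 501 rising and 423 falling genes, the middle class 709 and 667, and the long class 789 and 839. Over all tested genes, 23.9% were called in either direction. Whether these counts follow exon length or the number of reads per gene was not tested. Medians of the log2 fold change were 0.0049, 0.0015 and -0.0029.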
